A study of Mus musculus with 3 samples.

Results

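The EGR zinc finger factors, the NAB corepressors that bind them and the NR4A nuclear receptors were described as 9 genes, Egr1, Egr2, Egr3, Egr4, Nab1, Nab2, Nr4a1, Nr4a2 and Nr4a3, chosen by symbol from the 55536 genes of the deposited gene tables. All 9 were found and all 9 passed the filter on low values, a mean of at least 0.1 TPM (a transcript abundance scaled for length and for the total of each library). The data were 3 libraries of a single group: ribosomal RNA-depleted total RNA of the cytosolic fraction of bone marrow-derived macrophages from C57BL/6J mice, all exposed to Lipid A at 100 ng/ml for 40 minutes. Toll-like receptor 4 senses Lipid A as the anchor of bacterial lipopolysaccharide, and such macrophages are cultured from the progenitors of the marrow. Per the labels, sex and age were not collected, and all 3 biological replicates point to the same donor entry, so p-values measure the spread between libraries, which may be technical. Unstimulated cells and other fractions were not analysed here, so every value is a level after exposure and none is a response to it.

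EGR proteins bind GC-rich DNA through zinc fingers and are made soon after growth factor or pathogen signals, when ERK phosphorylates the ETS partners of serum response factor. NAB1 and NAB2 dock on the inhibitory region of EGR1, EGR2 and EGR3, bring in the NuRD chromatin complex, and can close a loop because EGR proteins activate Nab2. NR4A proteins are nuclear receptors that act without a classical hormone, bind the NBRE element AAAGGTCA, and are known in macrophages as early products that restrain inflammatory genes.

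The libraries held 37861150, 37136495 and 58889061 expected counts in genes in replicates 1, 2 and 3. All 10 macrophage markers had a mean of 1 TPM or more, with a summed level of 5672 to 9668 TPM. Most of that sum was Lyz2, at 7512, 6127 and 4282 TPM in replicates 1, 2 and 3, and Marco was the lowest, with a mean of 1.27 TPM. A mean of 1 TPM or more was reached by 4 of 8 neutrophil markers, with a sum of 38.6 to 51.9 TPM and Ly6g at 0. None of the dendritic cell, lymphocyte, stromal, erythroid or mast cell and basophil markers reached a mean of 1 TPM. Replicate 3 stood apart: RNAs known to stay in the nucleus (Malat1, Neat1, Xist and Rn7sk) took 2.47% of its counts, against 0.965% in replicate 1 and 0.744% in replicate 2, and protein-coding genes held 23.5% of its TPM, against 32.8% and 36.2%. The part of this in the levels below was not tested; a coding-scaled TPM, which is TPM divided by the share of it held by protein-coding genes, is therefore given beside the level where the order of libraries matters.

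Among the EGR genes the order of levels was Egr1, Egr2, Egr3 and Egr4, with Egr1 holding 84.1% ± 1.70 of the EGR TPM (SD, n = 3). Egr1, the prototype of the family (ENSMUSG00000038418.7, mm10 chromosome 18, 34859823 to 34864984, plus strand), had 526, 666 and 364 TPM in replicates 1, 2 and 3. It ranked 62 of 11445 detected protein-coding genes, whose median was 6.15 TPM and whose highest 10% began at 41.7 TPM. Egr1 stood at 1607, 1841 and 1545 coding-scaled TPM, so replicate 3 stayed the lowest but by less. Fewer cells making a message and less of it per cell cannot be told apart in these bulk libraries.

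Egr2, known for its roles in myelination and in myeloid cells (ENSMUSG00000037868.15, chromosome 10, 67535475 to 67542188, plus strand), had 84.3, 94.7 and 61.7 TPM, rank 590. It stood at 257, 262 and 262 coding-scaled TPM. CPM are counts scaled to the library size, and for the spread that size was adjusted by TMM. By the SD of log2 CPM so scaled, Egr2 was the most even of the 9 (0.0437). Nab2 was more even than Egr2 without a filter on low counts (0.0472 against 0.0545) and without replicate 3 (0.0102 against 0.0461). With other size factors, among protein-coding genes alone and without replicate 1 or 2, Egr2 stayed the most even. Egr3, known from muscle spindle development and lymphocytes (ENSMUSG00000033730.4, chromosome 14, 70077203 to 70082614, plus strand), had 15.5, 15.5 and 15.9 TPM, rank 3039. Egr4, known from male germ cells (ENSMUSG00000071341.4, chromosome 6, 85511121 to 85513589, minus strand), had 0.190, 0.260 and 0.210 TPM, from 20, 26 and 45 expected counts, rank 10892. A count of 0 allows up to 3 counts per library, so Egr4 was above that limit in all 3 libraries but rested on few reads; such limits cover counting error only.

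Both corepressors stood above the median gene. Nab1 (ENSMUSG00000002881.14, chromosome 1, 52457294 to 52500679, minus strand) had 16.6, 21.3 and 13.7 TPM, rank 2777, and Nab2 (ENSMUSG00000025402.12, chromosome 10, 127660918 to 127668568, minus strand) had 11.5, 12.8 and 9.17 TPM, rank 3962. Nab1 was the higher in every library and made up 60.5% ± 1.76 of their sum (SD, n = 3). The summed level of the 2 corepressors was 28.1, 34.0 and 22.9 TPM, against a summed EGR level of 626, 776 and 441 TPM.

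Nr4a1 (also called Nur77; ENSMUSG00000023034.7, chromosome 15, 101254269 to 101274795, plus strand) held 97.7% ± 0.489 of the NR4A TPM (SD, n = 3). It had 186, 270 and 109 TPM, rank 250, and replicate 2 was the highest also in coding-scaled TPM, at 747, against 569 in replicate 1 and 464 in replicate 3. Nr4a3 (Nor1; ENSMUSG00000028341.9, chromosome 4, 48045153 to 48086447, plus strand) had 2.15, 5.39 and 1.31 TPM, rank 7670. Nr4a2 (Nurr1, needed by midbrain dopamine neurons; ENSMUSG00000026826.13, chromosome 2, 57106830 to 57124003, minus strand) had 1.55, 2.62 and 1.10 TPM, rank 8667. Both were below the median gene, and for both replicate 2 was the highest. The authors' interval for Nr4a2 in replicate 1, whose level is not stated and which lies around a posterior mean rather than the TPM, ran from 1.43 to 5.84 TPM.

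**Figure D1:**
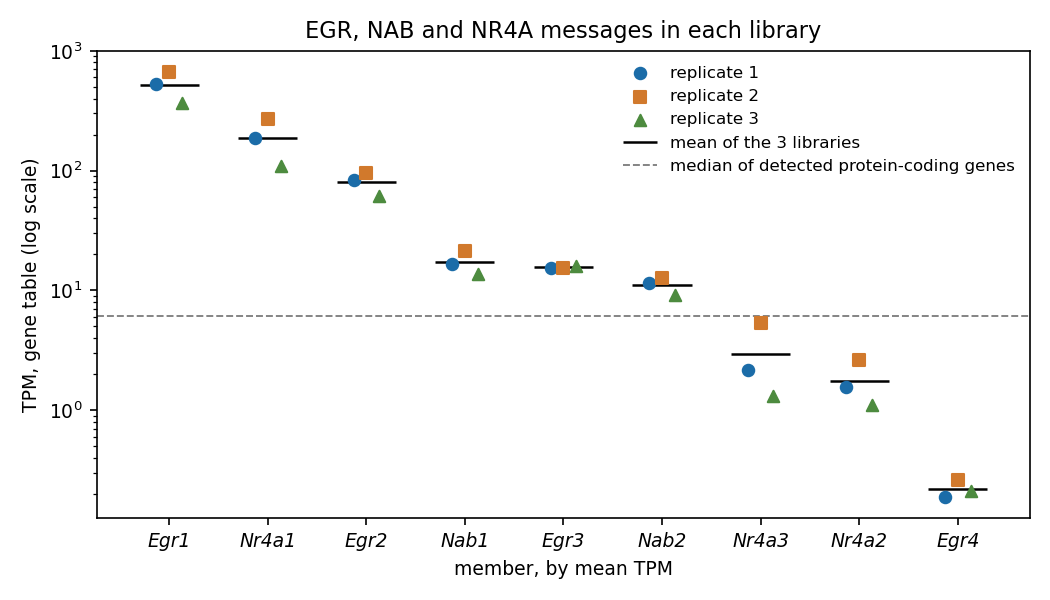
TPM of each member (log axis) in replicates 1, 2 and 3 as points, with the mean as a bar and the median of detected protein-coding genes (6.15 TPM) as a dashed line. Egr1, Nr4a1 and Egr2 stand above the rest in every library, and Nr4a3, Nr4a2 and Egr4 lie below the dashed line.

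Replicate 2 had the highest TPM for 8 of 9 members, all but Egr3, and replicate 3 the lowest for 7 of 9, all but Egr3 and Egr4. Of the 11445 detected protein-coding genes, 64.0% were highest in replicate 2 and 87.4% lowest in replicate 3, so most of the members followed the order that was common to coding genes.

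Which neighbours in the order of levels differed beyond the spread between libraries was tested with limma on within-library differences of log2(TPM + 1), on which scale the difference of low genes is understated. Of the 36 pairs of members, 34 were called at adjusted p under 0.05, among them 6 of 8 neighbours, and 35 pairs had the same sign in all 3 libraries. Most pairs of any genes differ: the share of 13702 genes called against the lower member of a pair was 97.8% for Nr4a1, 98.2% for Egr2, 91% for Nab1, 87.9% for Egr3, 91% for Nab2, 73.5% for Nr4a3, 85.7% for Nr4a2 and 79.2% for Egr4, so these counts are near the background. All differences from the same base gene carry that gene's error, which also enters the variances pooled over genes, so the moderated p-values may be too small. The limma fit took the spread as the same for all genes when the base was Nr4a1, Nr4a2 or Nr4a3, and without this moderation of the variance 26 of 36 pairs and 4 of 8 neighbours were called. The 8 pairs lost were Egr3 with Nab2 and the 7 pairs of Nr4a3 that the moderated fit had called.

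Egr1 exceeded Nr4a1 by 1.49, 1.30 and 1.73 on the log2(TPM + 1) scale in replicates 1, 2 and 3 (mean 1.51 ± 0.21, SD, n = 3; limma adjusted p = 3.09e-06, or 0.00818 without moderation of the variance). Nr4a1 exceeded Egr2 by 1.14, 1.503 and 0.81 (mean 1.15 ± 0.35; limma adjusted p = 0.000293, or 0.0304 without moderation). Egr2 exceeded Nab1 by 2.28, 2.10 and 2.09 (mean 2.16 ± 0.10; limma adjusted p = 2.59e-07, or 0.00548 without moderation). These 3 steps kept their sign in every library. Nab1 and Egr3 did not differ beyond the spread: Nab1 was higher by 0.09 and 0.44 in replicates 1 and 2 and the difference was -0.20 in replicate 3 (mean 0.11 ± 0.32; limma adjusted p = 0.570).

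Egr3 exceeded Nab2 by 0.40, 0.26 and 0.73 (mean 0.46 ± 0.24; limma adjusted p = 0.00910, or 0.0905 without moderation of the variance). Nab2 exceeded Nr4a3 by 1.99, 1.11 and 2.14 (mean 1.74 ± 0.56; limma adjusted p = 2.22e-05, or 0.101 without moderation), the difference being smallest in replicate 2, where Nr4a3 was highest. Nr4a3 and Nr4a2 did not differ beyond the spread, at 0.30, 0.82 and 0.14 (mean 0.42 ± 0.36; limma adjusted p = 0.0739). In CPM, without the division by length, that pair was called with a difference of 0.83 (limma adjusted p = 0.00207). Nr4a2 exceeded Egr4 by 1.10, 1.52 and 0.80 (mean 1.14 ± 0.37; limma adjusted p = 9.19e-05, or 0.0435 without moderation). Between the corepressors Nab1 exceeded Nab2 by 0.50, 0.69 and 0.53 (mean 0.57 ± 0.11; limma adjusted p = 0.00111, or 0.0159 without moderation).

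**Figure D2:**
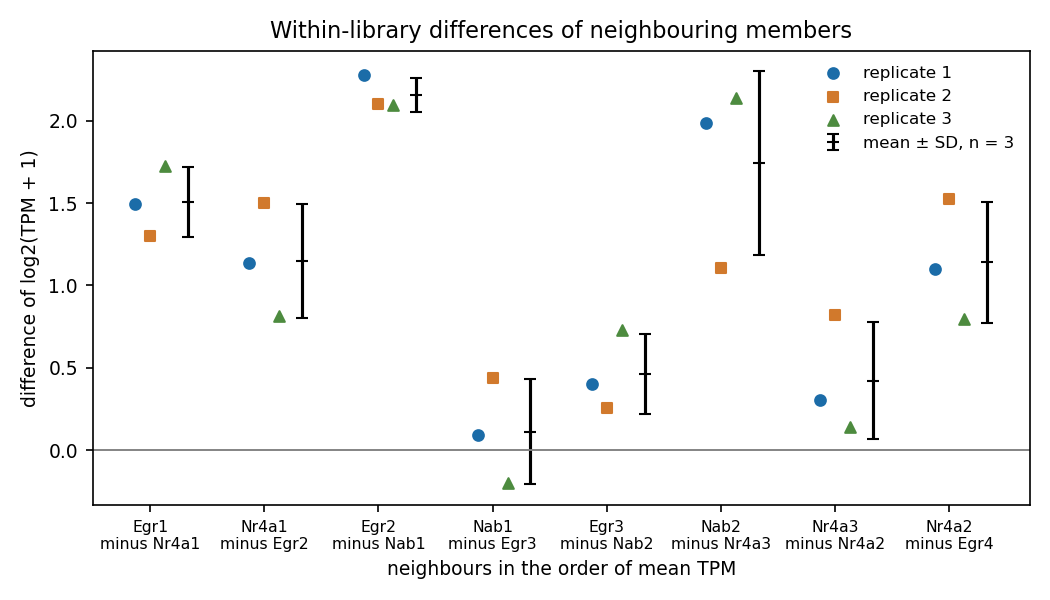
Difference of log2(TPM + 1) between neighbours in the order of mean TPM, the higher member minus the lower, in replicates 1, 2 and 3 as points beside the mean ± SD (n = 3). The points of Nab1 minus Egr3 lie on both sides of 0, and those of Nab2 minus Nr4a3 range from 1.11 to 2.14.

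The spread of each member between libraries was set against that of all genes with an edgeR goodness-of-fit test on expected counts, which calls genes that vary beyond the trend of the dispersion with level. Nr4a3 was the 1 member called, against a background of 1.71% of 12250 genes, with log2 CPM of 3.74, 4.66 and 3.44 in replicates 1, 2 and 3 (SD 0.637, edgeR adjusted p = 0.00778). Replicate 2 stood above the other 2 libraries. Without replicate 2 the call was lost (edgeR adjusted p = 1.00), and it was lost also without replicate 3 (edgeR adjusted p = 0.178). At an unadjusted p under 0.05, which 6.15% of genes reached, Egr3 and Nr4a1 were added. Egr3 had 6.26, 6.13 and 6.76 log2 CPM and was highest in replicate 3 (SD 0.331, edgeR adjusted p = 0.600), whereas Nr4a1 had 9.22, 9.64 and 8.89 and was highest in replicate 2 (SD 0.373, edgeR adjusted p = 0.801). Above the median SD of 0.161, which is over genes of all levels, were 5 members: all 3 NR4A genes, Egr3 and Egr4 (0.280). Of these, the low genes Egr4 and Nr4a2 did not vary beyond the trend with level (edgeR unadjusted p = 0.719 and 0.102). Both NAB genes, at 0.136 for Nab1 and 0.0595 for Nab2, were below that median, as was Egr2 (0.0437), and Egr1 (0.160) was close to it.

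**Figure D3:**
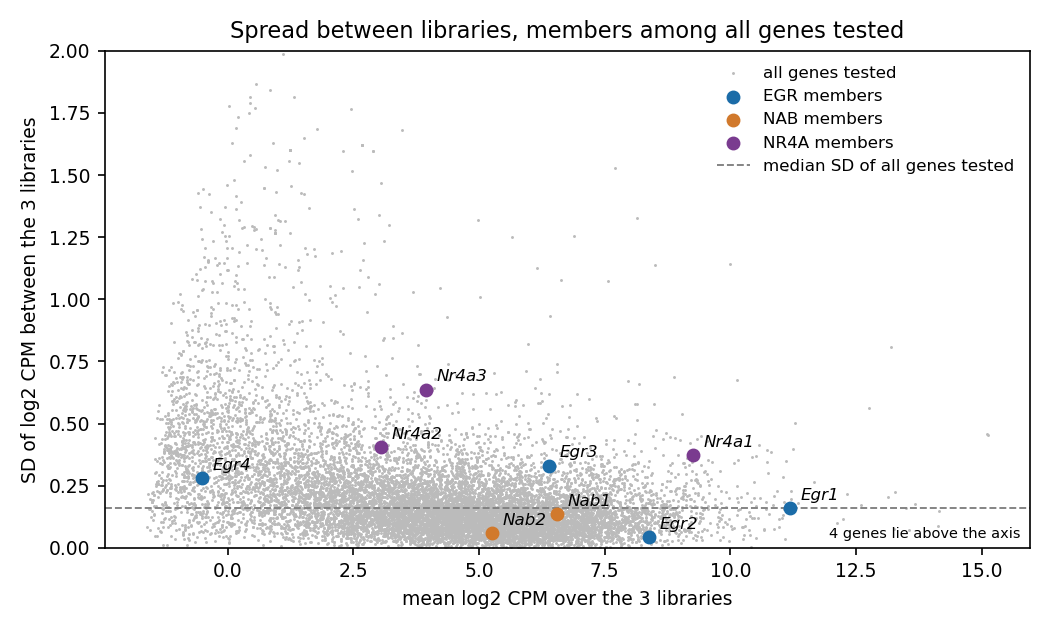
SD of log2 CPM between the 3 libraries against the mean, for the 12250 genes tested (grey) and the 9 members (coloured by family), with the median SD of 0.161 dashed. The NR4A members lie at SDs of 0.373 to 0.637, and Egr2 and Nab2 near the lower edge at 0.0437 and 0.0595.

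Egr3 was also the member in which a retained-intron form weighed most. The annotation holds 37 transcripts of the 9 genes, 27 of them protein-coding, and retained-intron transcripts for Egr3, Nab1 and Nr4a1. Those of Nab1 and Nr4a1 took 0.721% ± 0.755 and 0.320% ± 0.0698 of their gene's TPM in the first transcript table (SD, n = 3). Egr3-202, a single-exon transcript at chromosome 14, 70078739 to 70082614, took 35.7%, 12.4% and 44.4% of the Egr3 TPM in replicates 1, 2 and 3. In the second transcript table, which the authors derived from the reads without the alignment, it took 23.6%, 6.87% and 29.0%. In both tables replicate 3 was the highest and replicate 2 the lowest, as for the share of nuclear RNAs in counts. With 3 libraries this likeness was not tested.

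Egr3-202 shares 3655 of its 3876 bases with the main coding transcript Egr3-204, and the bases it has to itself are few: 157 from the end of the intron and 64 beyond the end of Egr3-204.

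The gene-level TPM of Egr3, alike in the 3 libraries, was in the first table the sum of components that differed in opposite directions between libraries. Egr3-202 stood at 5.53, 1.91 and 7.04 TPM, and Egr3 without it at 9.95, 13.5 and 8.82 TPM (mean 10.8 ± 2.46, SD, n = 3), so without it replicate 2 was the highest and replicate 3 the lowest. In coding-scaled TPM, Egr3 stood at 47.2, 42.7 and 67.4 with Egr3-202 and at 30.4, 37.4 and 37.5 without it; replicate 3 was then the highest with it, and replicates 2 and 3 were alike without it. In the second table Egr3-202 stood at 1.89, 0.608 and 1.60 TPM and the rest of Egr3 at 6.12, 8.24 and 3.92 TPM, so there both parts were lower in replicate 3 than in replicate 1 and the sum was not alike. With Egr3-202 left out of the gene table, Nab1 exceeded Egr3 by 0.63 on the log2(TPM + 1) scale (limma adjusted p = 0.000245), and Egr3 minus Nab2 was -0.05 (limma adjusted p = 0.621), an alternative chosen after the values were seen.

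**Figure D4:**
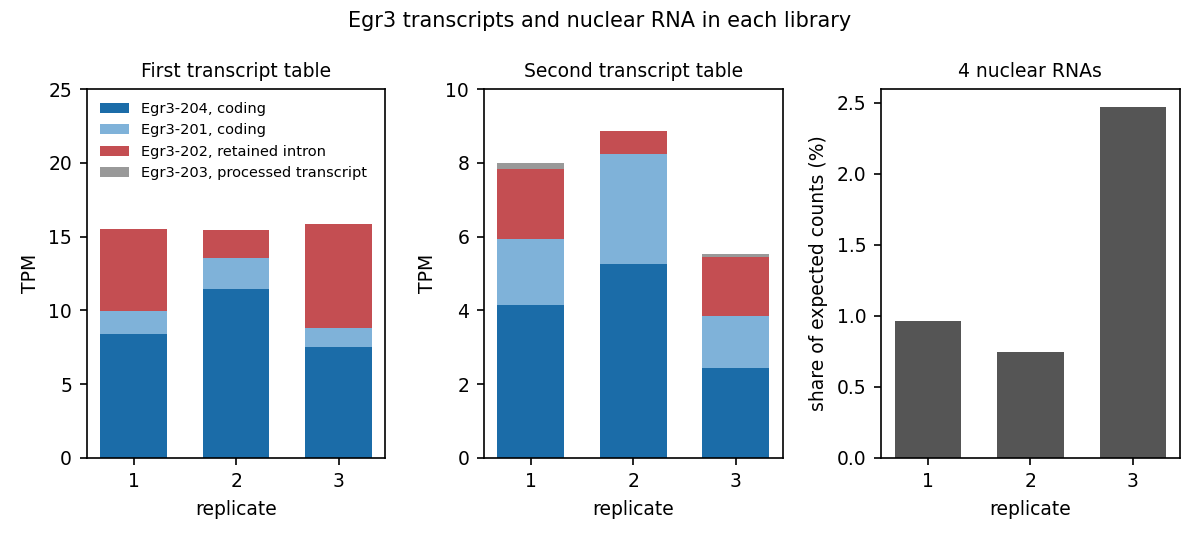
TPM of the annotated Egr3 transcripts, stacked, in replicates 1, 2 and 3 of the first and second transcript tables, beside the share of expected counts in Malat1, Neat1, Xist and Rn7sk. The retained-intron transcript is largest as a share in replicate 3 and smallest in replicate 2 in both tables, and the nuclear RNAs are at 2.47% and 0.744% there.

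Both transcript tables named the same main transcript for all 9 members. Nr4a1-201 took 97.8% ± 0.588 of the Nr4a1 TPM in the first table and 96.1% ± 0.779 in the second (SD, n = 3), and Egr4 has a single annotated transcript. Egr1-202 took 89.5% ± 2.24 and 87.9% ± 2.80, Egr2-201 87.6% ± 1.02 and 87.8% ± 4.73, and Nab1-201 74.7% ± 3.72 and 75.7% ± 1.31. Nab2 was divided between coding transcripts, with 56.6% ± 3.71 in Nab2-201 and 42.4% ± 4.95 in Nab2-202 in the first table, against 68.5% ± 4.14 and 30.8% ± 4.05 in the second.

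Egr3-204 took 54.0%, 74.0% and 47.3% of the Egr3 TPM in replicates 1, 2 and 3 of the first table and 51.8%, 59.4% and 44.4% in the second. The low NR4A genes also varied between libraries. Nr4a2-201 took 86.5%, 77.9% and 42.7% of the Nr4a2 TPM in replicates 1, 2 and 3 of the first table, and Nr4a2-206, annotated as a target of nonsense-mediated decay, took 20.3% ± 7.98 (SD, n = 3). Nr4a3-203 took 57.7% ± 8.63 in the first table and 45.2% ± 12.8 in the second, beside Nr4a3-204, a processed transcript without a coding frame, at 22.2% ± 8.72 and 23.8% ± 4.11. The expected counts behind Nr4a2 were 275, 439 and 387, and behind Nr4a3 508, 973 and 612.

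**Figure D5:**
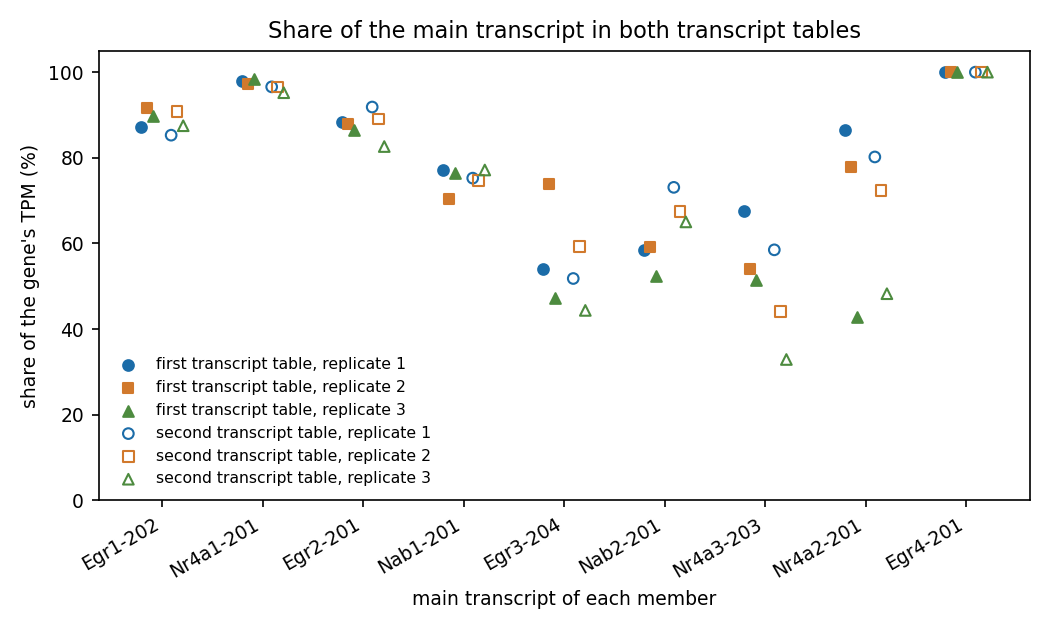
Share of each gene's TPM in its main transcript, for replicates 1, 2 and 3 of the first (filled) and second (open) transcript table. The shares of Egr1, Nr4a1, Egr2 and Egr4 exceed 80% throughout, whereas Nr4a2-201 ranges from 42.7% to 86.5% in the first table.

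The summed TPM of the second table was below that of the gene table for every member, by 1.34 for Egr1 and 1.34 for Nr4a1 on the log2(TPM + 1) scale at the large end and 0.16 for Egr4 at the small end, where the pseudocount shrinks the drop: with a pseudocount of 0.1 it was 0.75 for Egr4. The median over detected protein-coding genes was also lower, by 0.95, so levels of the tables are not set side by side here. Only 2.69% of coding genes dropped by more than Egr1 and 3.12% by more than Nr4a1, on a scale that shrinks the drop of low genes. The cause was not tested.

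Reads of members could be confused with those of other genes for Nab2 above all. On the opposite strand Nab2 overlaps Gm16229 over 1646 bases, Nemp1 over 1668 bases and Stat6 over 40 bases, at mean levels of 0.0467, 1.72 and 40.9 TPM, and whether counting used strand is not given in the sources used here. Nemp1 begins at 127666901, outside the span of Nab2-201, which ends at 127666710, and of Nab2-202, which ends at 127666632. Nab2-204 alone reaches Nemp1, and it had 0, 0.27 and 0 TPM in replicates 1, 2 and 3 of the first transcript table. Of the 50-base runs of the main transcript, 31.0% in Nab2, 2.61% in Nab1 and 0.179% in Nr4a3 occur in another gene's transcript, and none do in the other 6 members. In Nab2 these are 785 runs, of which 780 occur in Gm16229, so they mostly restate the overlap with that gene. No run of 50 bases was shared between members.

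The closest match between members within coding sequence lies in the zinc finger region of Egr2 and Egr3, at chr10:67540653-67540696 and chr14:70079633-70079676, both on the plus strand, with 44 identical bases. Nr4a2 and Nr4a3 share 27 bases, at chr2:57110704-57110730 on the minus strand and chr4:48055966-48055992 on the plus strand. Nr4a1 and Nr4a3 share 24, at chr15:101270946-101270969 and chr4:48052178-48052201, both on the plus strand. Egr3 and Egr4 share 38 bases and Egr2 and Egr4 share 29, in the same region. The 3 runs shown are the longest of the EGR pairs, the longest of the NR4A pairs and the longest that involves Nr4a1, and all 5 are shorter than the 50 bases above. Capitals mark identity over the whole run.

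Egr2 and Egr3: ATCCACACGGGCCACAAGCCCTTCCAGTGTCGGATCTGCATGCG

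Nr4a2 and Nr4a3: GCAAATAAAAACTGCCCAGTGGACAAG

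Nr4a1 and Nr4a3: GAGGGCTGCAAGGGCTTCTTCAAG

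Nab1 and Nab2, by contrast, share at most 11 consecutive bases of coding sequence, and Nr4a1 and Nr4a2 at most 14.

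Promoters were taken from RefSeq (GRCm38.p6, the assembly of mm10), which held 7 of the 9 members in the table used here, and the 250 bases before the start are shown for a pair of highly expressed members, Egr2 and Nr4a1, and for a pair of low ones, Nr4a2 and Egr4. Those windows hold no annotated exon. They lie at chr10:67537619-67537868 on the plus strand for Egr2, chr15:101266596-101266845 on the plus strand for Nr4a1, chr2:57124004-57124253 on the minus strand for Nr4a2 and chr6:85513590-85513839 on the minus strand for Egr4. The start of Nr4a2 used here lies 8965 bases from that of its main transcript, Nr4a2-201, and that of Nr4a3, which is not shown, lies 3809 bases from the start of Nr4a3-203 in a window with 152 exon bases. For Nab1, also not shown, the start lies 231 bases from that of Nab1-201, and 231 of the 250 bases before it are annotated exon. Each window shown is written in the direction of its gene, and capitals mark matches, on either strand, to the motifs named after them that lie wholly in the 250 bases. The NF-κB match of Nr4a1, which runs past the start site, is not marked.

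Egr2: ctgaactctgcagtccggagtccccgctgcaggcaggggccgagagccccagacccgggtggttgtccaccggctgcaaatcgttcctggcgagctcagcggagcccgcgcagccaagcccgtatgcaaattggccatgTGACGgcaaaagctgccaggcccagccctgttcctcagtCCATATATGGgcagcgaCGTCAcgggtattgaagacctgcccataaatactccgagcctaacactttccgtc

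Nr4a1: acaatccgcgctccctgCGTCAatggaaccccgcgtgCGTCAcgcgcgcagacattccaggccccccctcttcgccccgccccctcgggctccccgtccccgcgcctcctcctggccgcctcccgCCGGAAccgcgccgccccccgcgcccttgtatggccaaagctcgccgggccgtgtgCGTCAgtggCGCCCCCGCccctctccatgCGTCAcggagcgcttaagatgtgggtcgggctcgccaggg

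Nr4a2: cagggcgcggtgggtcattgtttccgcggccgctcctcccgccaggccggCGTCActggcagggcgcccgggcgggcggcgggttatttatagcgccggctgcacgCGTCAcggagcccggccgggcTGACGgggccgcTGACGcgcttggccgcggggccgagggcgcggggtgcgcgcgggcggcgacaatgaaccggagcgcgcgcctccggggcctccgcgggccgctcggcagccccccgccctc

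Egr4: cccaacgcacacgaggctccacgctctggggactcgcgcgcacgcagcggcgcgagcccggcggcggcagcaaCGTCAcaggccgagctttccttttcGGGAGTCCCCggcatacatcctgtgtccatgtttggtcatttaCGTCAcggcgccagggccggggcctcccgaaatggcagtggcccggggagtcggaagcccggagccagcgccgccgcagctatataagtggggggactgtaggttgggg

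The motifs searched on both strands, over 250 bases before to 50 after the start, were the CArG box bound by serum response factor, the cyclic AMP response element TGACGTCA and its core TGACG (which the full element contains), the EGR sites GCGTGGGCG and GCGGGGGCG, the NBRE AAAGGTCA, the ETS core CCGGAA and the NF-κB site. A CArG box was found in Egr2 alone of the 7 members, at -72 to -63 counted from the start site, and in 1.63% of 32851 promoters. TGACG was found in Egr2, Egr4, Nab1, Nr4a1, Nr4a2 and Nr4a3, with 4 matches in each NR4A promoter. At least 1 match was found in 20.8% of all promoters, and the share with 4 matches was not computed. GCGTGGGCG occurred in Nab1 (0.612% of all promoters), GCGGGGGCG in Nab1 and Nr4a1 (2.91%), CCGGAA in Nr4a1 (14.9%) and the NF-κB site in Egr4, Nab1 and Nr4a1 (4.51%). TGACGTCA and AAAGGTCA, found in 1.79% and 1.51% of promoters, matched in none of the 7, and no motif matched in Nab2. TGACG stands in all 4 of the promoters shown, high and low. A match describes letters in a window and no more.

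The regulators and partners of the 9 genes were read from 7 lists of 66 matched genes, of which 63 passed the filter. Against Nr4a1, where 1.28% of all genes tested were called above and 96.5% below, 1 list gene was above, 60 were below and 2 were not called. The gene above was Tnf, a reported EGR1 target and inflammatory cytokine, at 1160, 1427 and 609 TPM. It exceeded Nr4a1 by 2.50 on the log2(TPM + 1) scale (limma adjusted p = 9.97e-15, with the same spread taken for all genes). The 2 not called were in the same list: Tgfb1 at 168 ± 37.0 TPM and Thbs1, named after its values were seen, at 159 ± 24.0 TPM (SD, n = 3). Fgf2 was listed at 0 TPM in all 3 libraries, with 0, 0 and 2 expected counts.

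Against Nab1, where 16.9% of all genes tested were above and 74.1% below (median difference -1.69), 19 of the 63 were above, 30 below and 14 not called. Of the 12 NuRD subunits, 3 were above, 5 below and 4 not called, with a median difference of 0.01. Chd4, the remodelling ATPase that NAB proteins bind, was the highest at 43.4 ± 3.90 TPM, which exceeded Nab1 by 1.30 (limma adjusted p = 1.38e-05), and the deacetylase gene Hdac2 the lowest at 8.10 ± 1.09 TPM (SD, n = 3). Of the 10 kinases upstream, 4 were above, 2 below and 4 not called. Mapk3, which encodes ERK1, led with 58.1 ± 17.1 TPM, and Rps6ka5, which encodes MSK1, was the lowest at 0.837 ± 0.352 TPM.

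Of 6 genes for serum response factor and its partners, 1 was above Nab1, 4 were below and 1 was not called. The coactivator Mrtfa stood at 23.3 ± 5.93 TPM, the ETS partner Elk4 at 16.9 ± 4.45 and the ETS partner Elk1, the lowest, at 5.18 ± 1.76 (SD, n = 3). Of 11 CREB, CRTC and MEF2 genes, 3 were above, 6 below and 2 not called, from Mef2c at 31.2 ± 6.71 and the acetyltransferase gene Ep300 at 28.0 ± 3.61 TPM to the CREB coactivator Crtc1 at 1.59 ± 0.481. Of 7 tested NR4A partners, 2 were above, 4 below and 1 not called, led by the corepressor Ncor1 at 51.7 ± 11.0 TPM, and Rxrg was at 0 and not tested. Of 4 tested zinc finger factors of GC-rich sites, 3 were below and 1, Sp3, was not called, with Sp3 at 17.9 ± 3.39 and Sp1 at 12.5 ± 3.13 TPM, and Wt1 was at 0 and not tested.

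The protein-coding genes nearest to the leading member of each family were found by Euclidean distance in log2(TPM + 1) over the 3 libraries. For Egr1 these were Rpl13a (distance 0.0695), Ppia (0.0900) and Dusp1 (0.128). For Nab1 they were U2surp (0.0416), Bhlhe41 (0.0463) and Ube2q2 (0.0471), and for Nr4a1 they were Srgn (0.0753), Zfp36l1 (0.173) and Pcbp2 (0.198). Srgn, the proteoglycan serglycin, had 194, 261 and 110 TPM in replicates 1, 2 and 3, beside the 186, 270 and 109 TPM of Nr4a1. Nearness here is of level over 3 libraries of the same cells and no more.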

How the data were processed

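Cytosolic total RNA of Lipid A-treated macrophages was sequenced in 3 libraries. Per the deposited notes, the authors made for each a gene table and a first transcript table of expected counts and TPM by aligning reads to the transcriptome, and a second transcript table of estimated counts and TPM from the reads without that alignment, on mm10 with GENCODE M21. The deposited interval bounds of TPM are treated as a signal; their level is not stated. Which tools were used, and whether with strand, is not given in the sources used here. Depth was 37861150 to 58889061 expected counts. Features for spike-ins (97, 0.0533% to 0.314% of counts) and those with numeric IDs (26248, at count 0) were kept out.

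Pairs were tested with limma 3.58.1 in R 4.3.3: for each member as base, within-library differences of log2(TPM + 1) of every gene with a mean of at least 0.1 TPM, intercept-only with moderated variance, two-sided, Benjamini-Hochberg over 13702 genes; a pair was read from the fit of its lower member. Spread was tested with edgeR 4.0.16 on expected counts rounded to whole numbers (filterByExpr, TMM, trended dispersion, goodness of fit; adjusted over 12250 genes). DESeq2 1.42.0 served as an alternative. Both tests were also run on simulated data, and the outcome is not given here. The text names all members, the 2 highest and the lowest gene of each list, and the 3 nearest genes of each family's leading member. Some items that this rule takes are not reported here. The members, lists and tests were chosen with earlier results of these data known. Sequences came from RefSeq GRCm38.p6 and the GENCODE M21 transcripts; Egr1 and Egr3 had no promoter in the table used here.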

Additional observations from a re-analysis of the deposited data

How the results depend on the processing

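The pair counts stayed within 1.5 times of 34 of 36 pairs and 6 of 8 neighbours under every alternative run: with replicates left out in turn they were 34 and 6 each time, the second transcript table gave 26 and 5 and a minimum mean of 1 TPM gave 27 and 6, both without Egr4, which fell below the filter and takes 8 pairs and 1 neighbour with it, CPM 35 and 7, and limma without variance moderation, chosen after the data were seen, 26 and 4. With a replicate left out the fits lean on the moderated variance, and most pairs of any genes are called. Those unchanged counts therefore say little about how far the pairs depend on single replicates. Nab1 minus Egr3 was -0.11 in the second table and -0.053 to 0.27 with replicates left out in turn, below 0 without replicate 2; the cause was not tested. Egr3 minus Nab2 was -0.053 without the retained-intron transcript, which lowers Egr3. Nr4a3 minus Nr4a2 was called under that minimum (0.42, limma adjusted p = 0.0305) and in CPM. Pathway counts were within 1.5 times throughout. The 209 genes that varied beyond the trend became 115 among protein-coding genes alone, 83 as DESeq2 dispersion outliers (more than 2 residual SDs above the trend) and 59 to 129 with replicates left out in turn, where fewer libraries were tested. The 1 member among them, Nr4a3, was not an outlier by DESeq2 (0 members), and 0 to 1 members were called with replicates left out; the cause was not tested. Member levels moved in coding-scaled TPM, which has another denominator, and in the second table, where the cause was not tested. At a pseudocount of 0.1 the second table was below the gene table by 0.75 for Egr4, 1.05 for Nr4a2 and 1.12 for Nr4a3. Genes were compared within libraries, but no paired comparison of groups was possible because all 3 libraries form 1 group. At 20 to 45 counts, depth limits Egr4 most, and the transcript shares of Nr4a2 and Nr4a3 rest on 275 to 973 counts of the gene.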
